A study of Homo sapiens with 8 samples.

Results

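The histone and DNA methyltransferase genes described here are the 9 genes KMT2A, KMT2B, KMT2C, KMT2D, SETD2, NSD1, WHSC1, EHMT1 and DNMT1, taken by name and by their hg19 positions. A binding peak was counted to a gene when it shared at least 1 base with the gene's interval on the gene's strand. By this rule the 9 genes held 511 of the 210878 peaks listed for replicate 1 of the CLIP experiment, 364 of the 65587 listed for replicate 2, and 115 of the 13758 deposited pairs of overlapping peaks. In every deposited pair the shared stretch covers at least 50% of the replicate 1 peak. The rule uses no measured value.

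The study mapped the RNA contacts of RBM45, an RNA-binding protein, by CLIP (cross-linking and immunoprecipitation), in cells with and without METTL3, the enzyme that places the methyl mark m6A on adenosines of messenger RNA. The peaks come from wild-type (WT) HEK293T cells, a human cell line derived from embryonic kidney. These cells carried a lentivirus for human RBM45 with a FLAG-HA tag. Ultraviolet light (254 nm, 300 mJ/cm2) cross-linked protein to RNA, and a rabbit antibody against the HA tag recovered the complexes. The series has 8 samples in 4 groups of 2 replicates, namely CLIP and size-matched input from WT and from METTL3 knockout cells, all expressing the tagged protein. The values below come only from the 2 WT CLIP replicates. Input and knockout libraries were not analysed here, so nothing below bears on m6A. The tagged protein was expressed from a virus, and neither separate cultures for the replicates nor the number of clones is stated in the labels. All positions are in hg19. The depth behind each list is unknown. A gene with more RNA and a gene whose RNA is bound more often cannot be told apart from peak numbers.

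Methyltransferases of this set write marks on chromatin. The KMT2 enzymes methylate histone H3 at lysine 4 (H3K4): KMT2A and KMT2B are close paralogs that act mainly at promoters, and KMT2C and KMT2D are very large paralogs that act mainly at enhancers. SETD2 travels with elongating RNA polymerase II and trimethylates H3K36, while NSD1 and WHSC1 (now NSD2) dimethylate the same residue. EHMT1, also called GLP, works in a complex with its paralog G9a to methylate H3K9 at silent genes. DNMT1 copies CpG methylation onto newly made DNA.

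All 9 genes carried RBM45 CLIP peaks in both replicates, and all 9 held at least 1 pair shared by the replicates. Peak density differed between them by 5 times or more. KMT2D, KMT2B and DNMT1 had the highest densities in both lists, and KMT2A, KMT2C and SETD2 the lowest. Along the genes, peaks gathered towards the 5′ end, most clearly in the shared pairs, of which 97 of 115 lay in the 5′ 50% of their gene.

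Among the H3K4 enzymes, KMT2D (chromosome 12, 49412758 to 49449107, minus strand, 36.4 kb) was among the most densely covered. It held 37 peaks in replicate 1, 28 in replicate 2 and 12 shared pairs. That is 10.2 peaks per 10 kb of gene in replicate 1 (95% exact Poisson interval 7.17 to 14.0) and 7.70 in replicate 2 (5.12 to 11.1). Such intervals cover counting error only. Its shared pairs came to 3.30 per 10 kb. Peaks of KMT2D were wide: the median was 53 bases in replicate 1 and 40 in replicate 2, against 30 and 31 in the whole lists. Its paralog KMT2C (chromosome 7, 151832010 to 152133090, minus strand, 301 kb) is the longest gene of the set and held 57 peaks in replicate 1 and 35 in replicate 2, or 1.89 and 1.16 per 10 kb. The Poisson intervals of the paralogs did not overlap in either list. KMT2C had 8 shared pairs, 0.266 per 10 kb. Parts of KMT2C have near-identical copies elsewhere in the genome, and the treatment of reads that fit several places is not stated in the labels, so its counts are uncertain.

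KMT2B and KMT2A differed in the same way. KMT2B (chromosome 19, 36208921 to 36229779, plus strand) is the shortest gene at 20.9 kb. It held 21 peaks in replicate 1 and 12 in replicate 2, or 10.1 and 5.75 per 10 kb, but only 1 deposited pair. KMT2A (chromosome 11, 118307205 to 118397539, plus strand, 90.3 kb) held 18 and 11 peaks, or 1.99 and 1.22 per 10 kb, and 3 shared pairs. The intervals of KMT2A and KMT2B did not overlap in either list. KMT2A was thus close to KMT2C in density, and the intervals of those 2 genes overlapped in both lists.

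Of the H3K36 enzymes, SETD2 was sparse and NSD1 and WHSC1 were not. SETD2 (chromosome 3, 47057898 to 47205467, minus strand, 148 kb) held 28 peaks in replicate 1, 20 in replicate 2 and 6 shared pairs, or 1.90, 1.36 and 0.407 per 10 kb. NSD1 (chromosome 5, 176560833 to 176727214, plus strand, 166 kb) held 63 and 70 peaks, or 3.79 and 4.21 per 10 kb, and 19 pairs. WHSC1 (chromosome 4, 1873123 to 1983934, plus strand, 111 kb) held 74 and 44 peaks, or 6.68 and 3.97 per 10 kb, and 21 pairs. NSD1 lay below WHSC1 in replicate 1, with intervals that did not overlap (2.91 to 4.84 against 5.24 to 8.38). In replicate 2 their intervals overlapped (3.28 to 5.32 against 2.89 to 5.33), so the order of these 2 genes was not the same in the replicates. Neither interval of SETD2 reached those of NSD1 or WHSC1.

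EHMT1 (chromosome 9, 140513444 to 140764468, plus strand, 251 kb) held the most peaks of the set, 160 in replicate 1 and 108 in replicate 2, and the most pairs, 28. Over its length this came to 6.37 and 4.30 peaks per 10 kb, close to WHSC1, and 1.12 pairs per 10 kb, close to the 1.14 of NSD1. DNMT1 (chromosome 19, 10244022 to 10305755, minus strand, 61.7 kb) held 53 and 36 peaks, or 8.59 and 5.83 per 10 kb. With 17 pairs, or 2.75 per 10 kb, it stood next to KMT2D in shared sites.

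**Figure D1:**
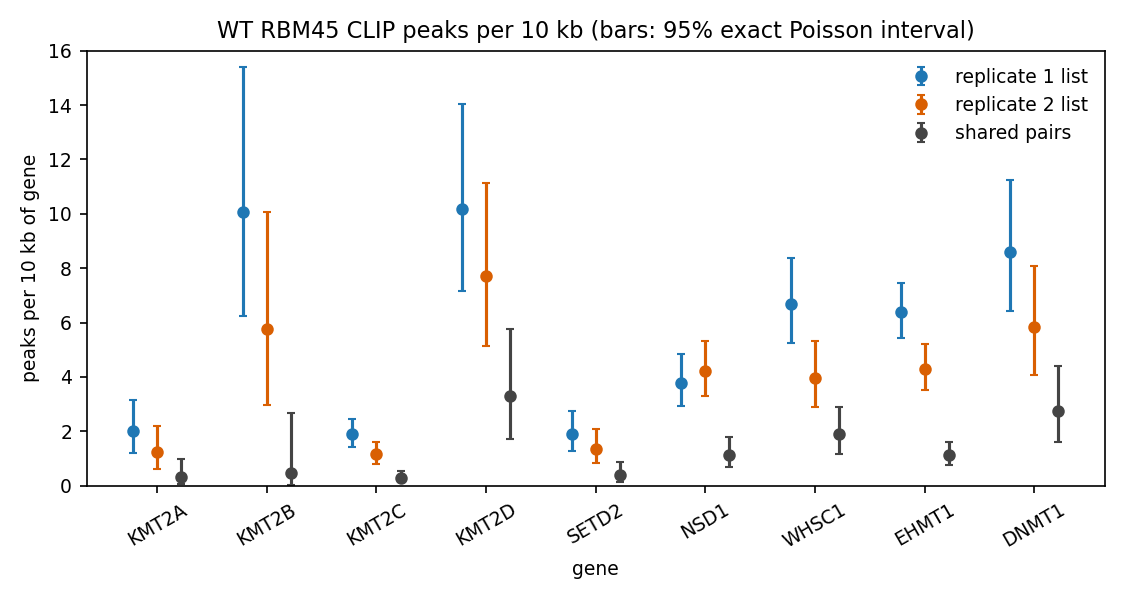
Peaks per 10 kb of gene (y axis) for each of the 9 genes (x axis) in the replicate 1 list, the replicate 2 list and the list of shared pairs, with bars for the 95% exact Poisson interval. KMT2D, KMT2B and DNMT1 stand highest in both lists, KMT2A, KMT2C and SETD2 lie at or below 1.99, and KMT2B has few shared pairs for its density.

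The order by density was similar in both lists but not the same. KMT2D came first and KMT2C last in each, though with intervals that overlapped those of their neighbours in the order, and the other genes changed place by at most 2. DNMT1 and KMT2B changed places, as did KMT2A and SETD2, and the middle of the order (WHSC1, EHMT1, NSD1) differed between lists. KMT2A, KMT2C and SETD2 lay between 1.89 and 1.99 per 10 kb in replicate 1 and between 1.16 and 1.36 in replicate 2, and their order cannot be read. Across the 9 genes, longer genes were sparser. The Spearman correlation of length with density was −0.78 in replicate 1, −0.63 in replicate 2 and −0.45 for shared pairs. It is a description of 9 genes that share their libraries.

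Within the genes, peaks lay towards the 5′ end. In replicate 1, 360 of 511 peaks, or 70.5% (95% exact Clopper-Pearson interval 66.3 to 74.4), had their midpoint in the 5′ 50% of the gene, and in replicate 2 it was 284 of 364, or 78.0% (73.4 to 82.2). The first 20% of gene length alone held 211 replicate 1 peaks (41.3%) and 182 replicate 2 peaks (50%), while the last 20% held 45 (8.81%) and 20 (5.49%). Shared pairs were placed still further forward, with 71 of 115 in the first 20% (61.7%, interval 52.2 to 70.6) and 84.3% in the 5′ 50% (76.4 to 90.5). Both intervals lay above those of the replicate 1 peaks but overlapped those of the replicate 2 peaks. The pairs are themselves peaks of these lists, and peaks of the same gene share a transcript. The intervals are thus not those of independent groups. The same measure over other genes of the lists was not analysed here, since it needs gene positions in hg19, so the 5′ excess is not shown to be particular to these genes.

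**Figure D2:**
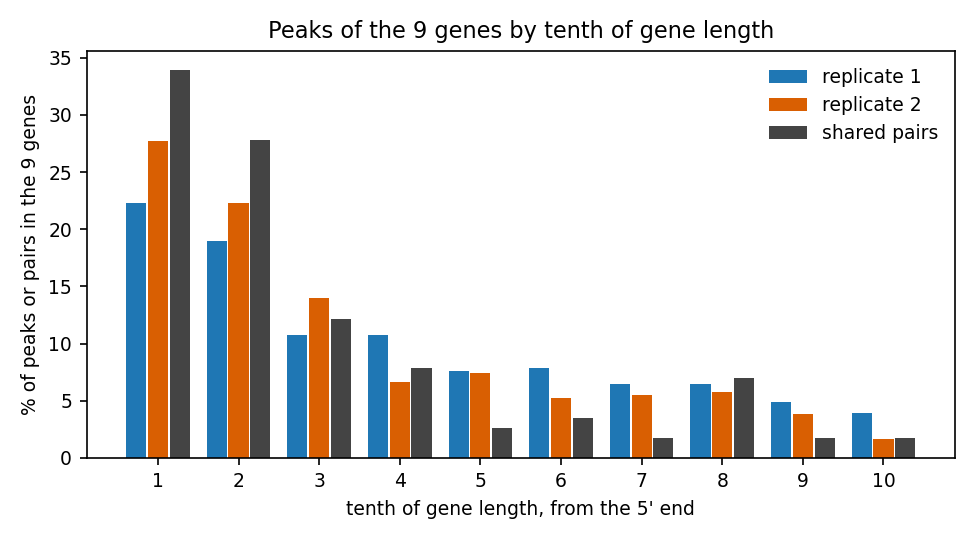
Share of the 9 genes' replicate 1 peaks, replicate 2 peaks and shared pairs (y axis, percent) by position along the gene from the 5′ end (x axis), in 10 bins of equal length. The first bin holds 114 peaks of replicate 1, 101 of replicate 2 and 39 pairs, and the last holds 20, 6 and 2.

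The 5′ excess was seen gene by gene. More than 50% of peaks lay in the 5′ 50% in 8 of the 9 genes in replicate 1 and in 9 of 9 in replicate 2. NSD1, mutated in Sotos syndrome, had 47 of 63 peaks there in replicate 1 and 60 of 70 in replicate 2, and 18 of its 19 pairs. WHSC1 had 51 of 74, 39 of 44 and 18 of 21. All 8 pairs of KMT2C lay within the first 114 kb of its 301 kb. All 3 pairs of KMT2A lay within the first 25.9 kb. In DNMT1, 15 of 17 pairs lay in the 5′ 50%. EHMT1 had 20 of its 28 pairs there, and its 3′ end was empty: no replicate 1 peak lay within 37.4 kb of the end of the interval and no replicate 2 peak within 39.9 kb. Since that interval may reach past the transcribed part, the 5′ share of EHMT1 depends on where the gene is taken to end.

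KMT2B departed from this pattern in replicate 1, and KMT2D followed it but had a further group at its 3′ end. KMT2B was the exception in replicate 1, with 7 of 21 peaks in the 5′ 50%, against 7 of 12 in replicate 2. Its replicate 1 peaks gathered instead between 60% and 70% of the way along the gene, where 7 of them lay. Those 7 were weak, at 2.34-fold to 3.90-fold, and 2.34 is the commonest value of the list. Of its peaks above 5-fold, those of 6.15, 5.33, 5.22 and 5.21 lay in the 5′ 50%, and that of 6.24 lay at 75.4%. KMT2D had 27 of 37 and 20 of 28 peaks in the 5′ 50%, but it also had a group at the very 3′ end, with 6 replicate 1 and 4 replicate 2 peaks in the last 10% of its length. Its last pair lay 36 kb from the 5′ end of the 36.4-kb gene. SETD2, by contrast, had pairs spread from 0.92 kb to 121 kb, 4 of 6 in the 5′ 50%.

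**Figure D3:**
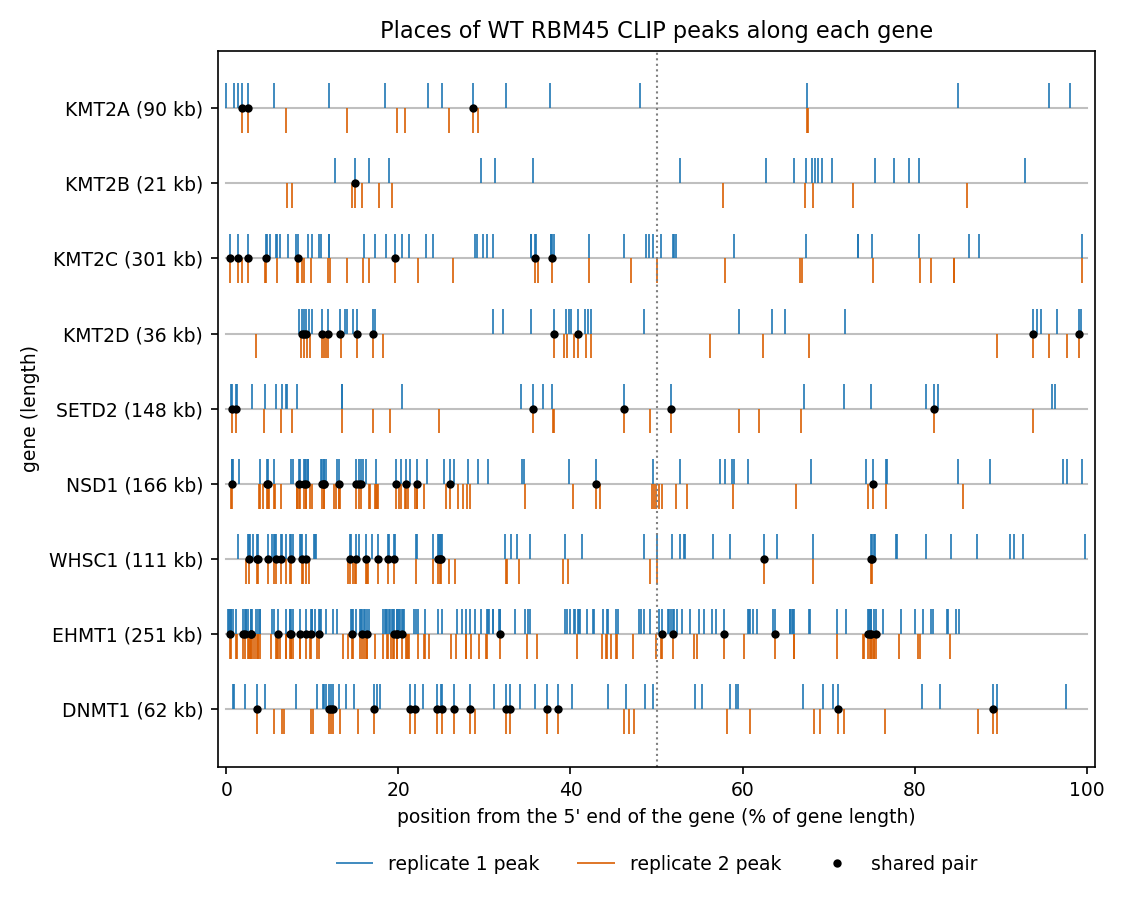
Position of every peak as a percent of gene length from the 5′ end (x axis) for the 9 genes (rows, with their lengths). Ticks above each line are replicate 1 peaks, ticks below are replicate 2 peaks, dots are shared pairs, and the dotted line marks 50%. Dots crowd on the left in NSD1, WHSC1 and EHMT1, and KMT2D shows a further group at its right end.

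Long stretches held no peak in either list. Apart from the 3′ end of the EHMT1 interval, the longest was in KMT2C, 36 kb between 263 kb and 299 kb from the 5′ end. KMT2A lacked peaks for 17.5 kb, from 43.4 to 60.9 kb, which is 19.4% of the gene. SETD2 lacked them for 16.3 kb and NSD1 for 14.1 kb. In the densest gene for its length, KMT2D, the longest gap was 6.44 kb, and between neighbouring peaks of EHMT1 it was 8.16 kb.

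The replicates were compared next, to see how many of the genes' peaks were placed at the same bases. Seen from replicate 2, 145 of the 364 peaks in the 9 genes shared at least 1 base with a replicate 1 peak, or 39.8% (interval 34.8 to 45.1), where 28.8% of all replicate 2 peaks did. Seen from replicate 1, 146 of 511 peaks overlapped, or 28.6% (24.7 to 32.7), against 8.88% of that list. All 9 genes lay above the list's share in replicate 1, and in 6 of them the whole interval did. In replicate 2, 7 of 9 lay above it, with 3 intervals (KMT2D, WHSC1, DNMT1) wholly above. Such intervals assume independent peaks, although peaks of 1 gene share a transcript. Peaks of the genes were also wider than those of the lists (median 34 against 30 bases in replicate 1, 33 against 31 in replicate 2), and peaks that overlapped were wider than those that did not (38 against 33 and 36 against 31). The part of width and strength in the shares was not tested.

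WHSC1, fused to the immunoglobulin locus in some myelomas, had the highest share in the full lists when 1 shared base was enough. By that rule 28 of its 44 replicate 2 peaks overlapped replicate 1, or 63.6% (47.8 to 77.6). KMT2D had 14 of 28 and DNMT1 18 of 36, both 50%. EHMT1 had 41 of 108 (38.0%), KMT2A 4 of 11 (36.4%), SETD2 7 of 20 (35.0%) and NSD1 22 of 70 (31.4%). The lowest were KMT2B with 3 of 12 (25%) and KMT2C with 8 of 35 (22.9%, interval 10.4 to 40.1). The intervals of WHSC1 and KMT2C did not overlap, nor did those of WHSC1 and NSD1. KMT2A, KMT2B and SETD2 had 20 or fewer replicate 2 peaks, and their intervals were too wide to place them.

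**Figure D4:**
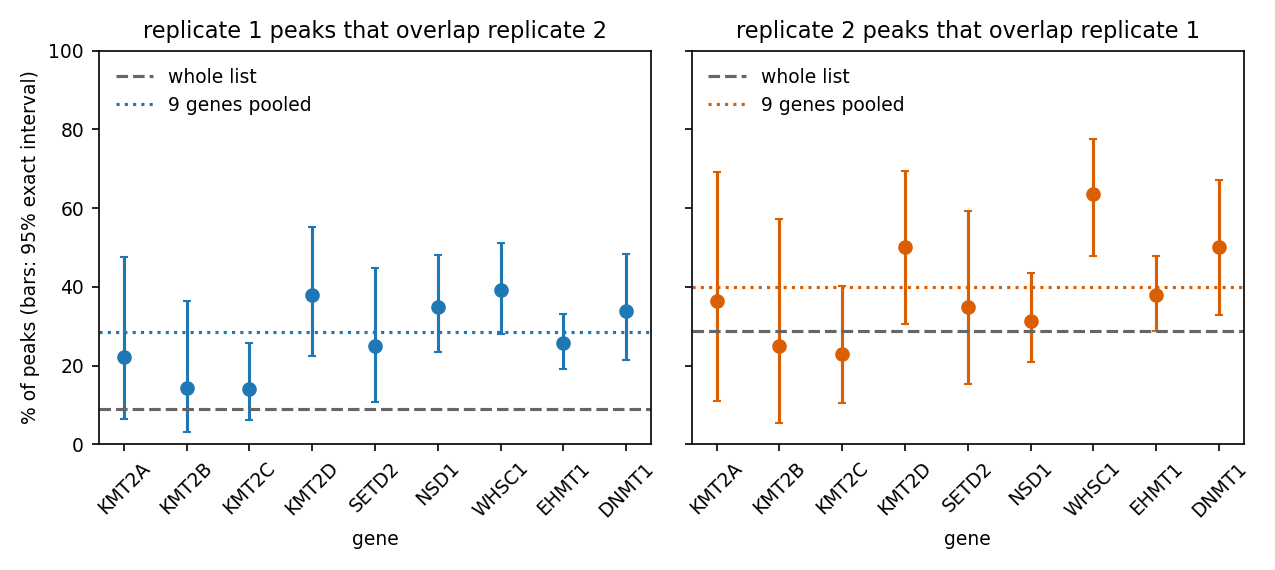
Percent of peaks (y axis) that overlap the other replicate, for each gene (x axis), from replicate 1 (left) and from replicate 2 (right), with 95% exact intervals. The dashed line is the whole list (8.88% and 28.8%) and the dotted line the 9 genes pooled (28.6% and 39.8%), and WHSC1 stands highest on both sides.

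Unmatched peaks were set against their nearest neighbour. Of the 219 replicate 2 peaks in the 9 genes without an overlap, 168 (76.7%) lay within 1 kb of a replicate 1 peak, against 56.3% of all unmatched replicate 2 peaks, and 51 lay further away. In WHSC1 only 1 of 44 replicate 2 peaks lay more than 1 kb from a replicate 1 peak, and in NSD1 6 of 70. In KMT2C it was 15 of 35 and in SETD2 7 of 20, the farthest of these 11.2 kb away. KMT2C and SETD2 are also among the sparsest genes, and the part of density in these distances was not tested.

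The 9 genes took a larger place in the shorter list. For every 100 replicate 1 peaks they held 71.2 replicate 2 peaks, where the whole lists hold 31.1. Put as shares, the genes made up 0.242% of replicate 1 peaks and 0.555% of replicate 2 peaks, 2.29 times as much (95% exact interval 2.00 to 2.63, counting error only). All 9 genes lay above the ratio of the whole lists, from 0.571 in KMT2B to 1.11 in NSD1. In the full lists NSD1 was the only one of the 9 with more peaks in replicate 2 than in replicate 1. That depended on the cut of the lists. In the stronger 50% of each list NSD1 had 54 peaks in replicate 1 and 53 in replicate 2. With replicate 1 cut to its 65587 strongest peaks, every gene but DNMT1 had more peaks in replicate 2. Of 7092 windows of 100 kb on 1 strand with at least 10 replicate 1 peaks, 1.06% held more replicate 2 than replicate 1 peaks, and 6.37% reached the ratio of the 9 genes pooled. The median window had 0.273 replicate 2 peaks per replicate 1 peak. Windows were kept by their number of replicate 1 peaks, which the genes were not. They also differ from the genes in length, so they give only a rough scale. With the replicate 1 list reduced to its 65587 strongest peaks, the ratio of shares was 1.36.

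The fold enrichment that the authors' caller gave each peak over its background was modest throughout. It is the authors' value for single peaks. It describes peaks within a list, and the folds of a pair are set side by side without being read as a change in binding. In the 9 genes its median was 3.67 in replicate 1 (interquartile range 3.06 to 4.62), where the whole list has 3.12, and 4.29 in replicate 2 (3.48 to 5.31), where the list has 3.81. Above 5-fold lay 89 of the 511 replicate 1 peaks, or 17.4% (14.2 to 21.0), against 9.16% of the list. In replicate 2 it was 115 of 364, or 31.6% (26.8 to 36.6), against 18.0%. Peaks above 10-fold numbered 3 of 511 in replicate 1 and 1 of 364 in replicate 2. The whole lists have 589 of 210878 and 304 of 65587. The gene medians ran from 3.12 to 4.08 in replicate 1 and from 3.21 to 4.74 in replicate 2.

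DNMT1 led by the share of peaks above 5-fold. In that gene 17 of 53 replicate 1 peaks and 17 of 36 replicate 2 peaks exceeded it. These were the highest shares of the 9 genes in both lists (32.1% and 47.2%). Its median fold was also the highest in replicate 1 (4.08). In replicate 2 KMT2C had the highest median, 4.74, against 4.58 in DNMT1. KMT2B was weakest in replicate 2, where none of its 12 peaks exceeded 5-fold, although 5 of its 21 replicate 1 peaks did. KMT2B also held all 5 of the genes' replicate 1 peaks at 2.34-fold, the commonest value of that list, carried by 14.5% of its peaks. KMT2D combined wide peaks with moderate folds, and 3 of its 28 replicate 2 peaks exceeded 5-fold.

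Shared pairs give the sites that both replicates support. The 115 pairs of the 9 genes had a median of 31 bases in common, and their midpoints lay a median of 3 bases apart. The median fold was 4.38 in replicate 1 and 4.79 in replicate 2, against 4.11 and 4.23 over all pairs. Both peaks exceeded 5-fold in 23 pairs, or 20% (13.1 to 28.5), where 13.9% of all pairs do. These 23 lay in 5 genes, 8 in DNMT1, 5 each in NSD1 and EHMT1, 3 in WHSC1 and 2 in KMT2C. In 105 of the 115 pairs (91.3%) the folds differed by at most 2 times, close to the 90.5% over all pairs. Replicate 2 gave the higher fold in 69 pairs and replicate 1 in 46, where over all pairs it was 7330 and 6428. Across the pairs, which are not independent, the Spearman correlation of the folds was 0.30, against 0.32 over all pairs.

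**Figure D5:**
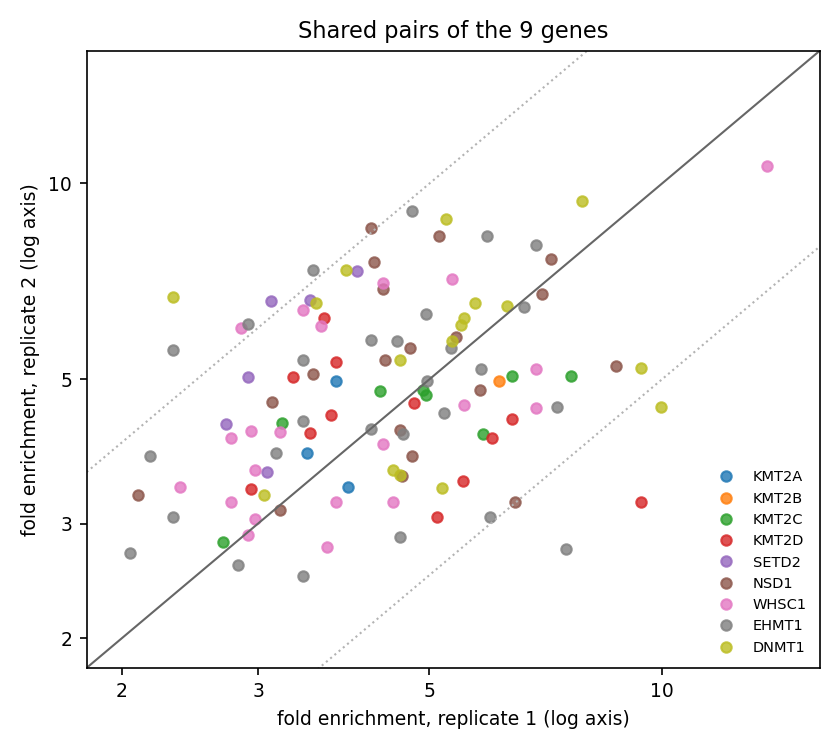
Fold enrichment in replicate 1 (x axis) and replicate 2 (y axis), both on log axes, of the 115 shared pairs, coloured by gene. The solid line marks equal folds and the dotted lines a factor of 2. The WHSC1 pair at the top right has 13.7 and 10.6, and most pairs lie between 2-fold and 10-fold.

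The pair with the highest lower fold in all 9 genes was in WHSC1. It lay at chromosome 4, 1891098 to 1891129, in replicate 1 (13.7-fold) and 1891100 to 1891130 in replicate 2 (10.6-fold), 18.0 kb from the 5′ end. It was the strongest WHSC1 peak in each list and the only pair of the 9 genes above 10-fold in both. A run of 3 WHSC1 pairs lay within 346 bases, from 1900427 to 1900772, with folds of 3.79 to 4.48 in replicate 1 and 3.23 to 3.98 in replicate 2. A replicate 2 peak of 125 bases there, from 1900649 to 1900773, overlapped 2 separate replicate 1 peaks.

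In DNMT1 the leading pair lay at chromosome 19, 10292181 to 10292215, with 7.87-fold in replicate 1 and 9.40-fold in replicate 2, which was the strongest replicate 2 peak of the gene. The strongest replicate 1 peak, at 10290256 to 10290286, had 9.96-fold and its partner 4.54-fold. Between 10298090 and 10298385, 3 pairs followed each other within 296 bases, the middle one with 9.40-fold in replicate 1 and 5.20-fold in replicate 2. The pair nearest the 5′ end, 2.21 kb from it, had 5.72-fold and 6.55-fold. A pair at 10292586 to 10292617 had 2.33-fold in replicate 1 and 6.69-fold in replicate 2, the widest disagreement in DNMT1.

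NSD1 had its leading pair at chromosome 5, 176597670 to 176597701, with 7.19-fold and 7.64-fold, 36.9 kb into the gene. The strongest replicate 1 peak was its first paired one, at 176561940 to 176561993, 1.13 kb from the 5′ end, with 8.72-fold and a partner of 5.24-fold. The strongest replicate 2 peak, at 176586454 to 176586491, had 8.53-fold and a partner of 4.20-fold. A run of 3 pairs within 405 bases, from 176579400 to 176579804, had 4.24-fold to 6.99-fold in replicate 1 and 5.36-fold to 7.57-fold in replicate 2. Of the 19 pairs of NSD1, 17 lay within the first 43.3 kb.

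The leading pair of EHMT1 was also its widest. A peak of 119 bases at chromosome 9, 140528570 to 140528688, in replicate 1 (6.87-fold) began at the same base as one of 120 bases in replicate 2 (8.05-fold), 15.2 kb from the 5′ end. The strongest EHMT1 peak of replicate 1, at 140678996 to 140679087, had 11.05-fold, but the replicate 2 peak it overlapped had 3.11-fold and the overlap was too short to enter the deposited pairs. The strongest of replicate 2, at 140518773 to 140518805, had 9.08-fold and its partner 4.74-fold. Away from the 5′ end, 3 pairs lay within 863 bases from 140700591 to 140701453, 188 kb into the gene, with 3.43-fold to 5.83-fold in replicate 1 and 2.49-fold to 5.18-fold in replicate 2.

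KMT2D had the most pairs in any 1-kb stretch of the set, 4 within 884 bases from 49445048 to 49445931 on chromosome 12, about 3.47 kb from the 5′ end. Their folds were 5.12 to 6.40 in replicate 1 and 3.07 to 4.35 in replicate 2. All 4 were higher in replicate 1. The pair with the most bases in common in the 9 genes, 143, at 49434158 to 49434322 (165 bases) in replicate 1 and 49434180 to 49434330 (151 bases) in replicate 2, had 9.39-fold and 3.23-fold, a 2.90-fold difference. The pair with the highest lower fold, at 49444777 to 49444820, had 4.77-fold and 4.60-fold. The 3′ pair at 49413059 to 49413127 had 3.65-fold and 6.22-fold, the latter the strongest replicate 2 peak in KMT2D.

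KMT2C had its leading pair at chromosome 7, 152025170 to 152025213, with 6.39-fold and 5.06-fold, 108 kb from the 5′ end. The pair at 152108060 to 152108092 included its strongest replicate 1 peak, 7.63-fold, with 5.06-fold in replicate 2. Its strongest replicate 2 peak, at 152105851 to 152105905 with 8.71-fold, had no replicate 1 counterpart. No 2 of its pairs lay within 1 kb of each other.

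SETD2 pairs were stronger in replicate 2 at all 6 sites. The leading one, at chromosome 3, 47152867 to 47152896, had 4.03-fold in replicate 1 and 7.34-fold in replicate 2. The pair farthest from the 5′ end, at 47084140 to 47084182, had 3.12-fold and 6.60-fold. The strongest replicate 1 peak, at 47063299 to 47063329 with 6.08-fold, was not matched.

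KMT2A and KMT2B rest on few shared sites. The first 2 pairs of KMT2A lay 1.67 and 2.26 kb from the 5′ end, at chromosome 11, 118308863 to 118308893 (3.79-fold and 4.97-fold) and 118309449 to 118309481 (3.92-fold and 3.42-fold). The third, at 118333050 to 118333079, had 3.47-fold and 3.85-fold. The strongest KMT2A peak of replicate 1, 10.9-fold at 118307186 to 118307216, lay across the start of the gene interval and had no replicate 2 counterpart. The strongest of replicate 2, 7.30-fold at 118368117 to 118368150, overlapped part of a replicate 1 peak of 2.54-fold. The single pair of KMT2B, at chromosome 19, 36212011 to 36212062, had 6.15-fold in replicate 1 and 4.98-fold in replicate 2, the latter its strongest replicate 2 peak. The strongest KMT2B peak of replicate 1, at 36224621 to 36224676 with 6.24-fold, was unmatched.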

How the data were processed

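The submitters' processing notes name hg19, deepTools 3.2.1, HOMER 4.11.1, MACS2 2.1.1.20160309, Novoalign 3.09.00 and bedtools 2.25.0, with no role or order. The deposited lists give per peak a score (10 times the −log10 p), the fold enrichment (a ratio to the background estimated by the caller), and the −log10 p, which is unadjusted. Peaks were called per library at a p threshold of 0.005, per the peak names. The control used in calling is not stated in the labels. The authors' count table (featureCounts 1.6.3, per the file headers) has 8 count columns whose names match no label, so it was not used and the planned count tests were not run.

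Rows that repeat a peak on 1 strand were merged, and positions count from 1. The pairs are those of the deposited overlap list. Analyses used scipy 1.17.1, pandas 2.3.3, numpy 2.4.6 and matplotlib 3.10.9 under Python 3.11.15. Overlap counting was tested on simulated data and against bedtools 2.31.1. Peaks have 1 list per library, so no p-value was computed. Members, lists and named sites (per gene: the pair with the highest lower fold, the widest pair, the strongest peak of each list, and the 1-kb stretch with the most pairs; further sites were chosen after their values were seen) were set with earlier results of these data known. Other methyltransferase genes, exons, introns and sequences, which need an hg19 reference, were not analysed here.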

Additional observations from a re-analysis of the deposited data

How the results depend on the processing

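Of the values recomputed that answer a comparison, 29 stayed and 15 moved. Staying meant lying within the interval or spread of the value reported, or within 1.5 times it for counts. Reversals were not looked for. For the mean density and the mean 5′ share, leaving out 1 replicate stays within the spread by construction, so those settings show nothing about stability. The same holds for peak counts on either strand, since 0 peaks lay on the opposite strand. Keeping only peaks above 5-fold could only lower the counts. The tally of 29 and 15 is therefore no measure of stability. Settings for the 5′ share and the ratio of list shares, those that leave out 1 gene, and the reduced list for the replicate 1 percentage were chosen after seeing the data. Requiring 50% of both peaks lowered the shared percentage to 29.1% from replicate 2 and 20.7% from replicate 1 (19.6% and 6.09% in the whole lists), because fewer overlaps qualify. With only the 65587 strongest replicate 1 peaks kept, it was 28.3% and 39.0% (18.6% and 18.3% in the lists), and the ratio of list shares was 1.36. Peaks above 5-fold numbered 89 and 115, and pairs with both above it 23. In the stronger 50% of each list the median fold was 4.09 and 4.81 by construction. The whole lists then had 3.94 and 4.60. The 5′ share of replicate 1 rose to 79.8% above 5-fold, 74.5% in the stronger 50% and 82.2% among overlapping peaks. That of replicate 2 was 79.1%, 81.0% and 82.1%, all within its interval. The cause of the rise in replicate 1 was not tested. Without replicate 1 or 2, 5 of 9 genes kept their place in the order by mean density. The mean density, 3.69 per 10 kb, ranged from 3.07 to 4.31, and the mean 5′ share, 74.2%, from 70.5% to 78.0%. Leaving out 1 gene moved no share, ratio or 5′ share beyond its interval. No paired analysis was possible because columns of read counts could not be tied to samples. For the same reason other settings of the count test (edgeR and DESeq2 normalization, no filter, each replicate left out) were not run. Read depth per library is unknown, which limits what a missing peak shows.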

Other observations

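The lists repeat a peak over several rows, and the number of rows followed the position in the gene. In KMT2B, KMT2C, KMT2D and SETD2 each peak stood in 1 row, and in KMT2A, NSD1 and DNMT1 in 2. In WHSC1 the number was 1 up to 20.9 kb from the 5′ end, 5 from 21.5 to 28.6 kb, 6 from 29.5 to 70.9 kb, 5 at 75.6 kb and 4 from 83.0 kb on. In EHMT1 it was 2 up to 165 kb, apart from 1 site at 145 kb with 3, and 1 from 165 to 214 kb. Replicates gave the same number in 115 of 115 pairs of the 9 genes and in 13757 of all 13758 pairs. On the strand opposite to the 9 genes, 0 peaks were listed in either replicate. The labels do not state how rows and strands were assigned, and whether the strand comes from the reads was not tested.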
